A study of Mus musculus with 232 samples.

Results

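The genes described here are 8 members of the Ras and insulin-PI3K pathways, Igf1r, Insr, Irs1, Irs2, Pik3ca, Akt1, Nras and Hras, followed in single mouse embryonic stem cells (ESCs) with and without a let-7 or a miR-294 mimic. They were chosen as a list of Ras and insulin pathway genes, several of which are reported let-7 targets, and each symbol was matched to 1 of the 42493 gene identifiers in the files. All 8 had counts in at least 1 condition, and 7 of them had a mean count of at least 5 over all cells, the filter that left 11227 genes. The member below that filter was Irs1.

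The study asked how single miRNAs act within single cells that otherwise lack them. Dgcr8-/- ESCs, which cannot process most miRNA precursors, were mock-transfected, or transfected with a let-7 mimic or with a miR-294 mimic, and captured 24 h later. ESCs of the parental wild-type (WT) line V6.5 were captured beside them. All 4 conditions were kept in serum, LIF and 2i, a pair of inhibitors of MEK and of GSK3, which are both kinases downstream in the pathways described here. Each condition was run on a single capture circuit and no separate cultures are named, so a condition is 1 sample, and a difference between conditions cannot be told apart from a difference between circuits. No test was therefore made. Values are the mean ± SD over cells of counts normalized for depth with DESeq size factors, and the SD describes cells, not replicates of a condition. The let-7 mimic is let-7i in the sample titles, let-7b in the series description and let-7c in the methods, and is called let-7 here.

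Insulin and the insulin-like growth factors bind the receptor tyrosine kinases Insr and Igf1r. The receptors phosphorylate the docking proteins Irs1 and Irs2, which recruit PI3K, whose catalytic subunit Pik3ca makes the membrane lipid that brings the kinase Akt1 to the membrane. The same receptors, through other adaptors, load small GTPases such as Nras and Hras with GTP, and these in turn activate the MAP kinase cascade and PI3K. In mouse ESCs this signalling is best known for its part in growth and survival, and the additional Ras protein Eras, found in ESCs, is active without a growth factor. The let-7 family is known as a repressor of Ras and insulin pathway mRNAs in other tissues and is nearly absent from ESCs, while miR-294 belongs to the miRNA family that is most abundant in them.

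The mature sequences show which part of each mimic is common to its possible names. They are from RefSeq (GRCm38.p6), 5′ to 3′, with the seed, bases 2 to 8, in capitals.
let-7c: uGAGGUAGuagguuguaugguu
let-7b: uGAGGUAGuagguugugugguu
let-7i: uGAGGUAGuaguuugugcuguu
miR-294: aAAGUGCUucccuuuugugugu
The 3 let-7 sequences had the same seed. With positions counted from 1 at the 5′ end, let-7b differed from let-7c only by A17G, and let-7i by G12U, A17G, U18C and G19U. The seed of miR-294 was another one.

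The longest annotated 3′ UTR of each gene (Gencode M21, GRCm38) was searched on the sense strand for the match to bases 2 to 8 (CTACCTC for let-7, AGCACTT for miR-294), for the match to bases 2 to 7 followed by A (TACCTCA for let-7, GCACTTA for miR-294) and for both together, an 8-mer (CTACCTCA for let-7, AGCACTTA for miR-294). A 7-mer inside an 8-mer was not counted again. A let-7 match was found in 6 of the 8 members and a miR-294 match in 3 of them. Igf1r had 3 let-7 matches, Nras and Insr 2 each, and Irs1, Irs2 and Akt1 1 each, while Hras and Pik3ca had none. The 8-mer was found in 3 members, Igf1r, Insr and Irs2. Nras had 2 matches to miR-294, Igf1r and Akt1 had 1 each, and no member had an 8-mer for it. The 8-mers, and the matches of the members without one, are shown in windows of 30 bases with the matching letters in capitals, because they are the part of each mRNA that a let-7 seed can pair with.
Igf1r, 8-mer, chr7:68229114-68229143, plus strand: caaacatttatCTACCTCActcttgttttt
Insr, 8-mer, chr8:3153187-3153216, minus strand: ctcagtacagtCTACCTCAgtgtcttatta
Irs2, 8-mer, chr8:10986517-10986546, minus strand: ctaccacagtcCTACCTCAgttcagggtga
Irs1, 7-mer, chr1:82234377-82234406, minus strand: gatcccatattTACCTCAtgctgccttggc
Akt1, 7-mer, chr12:112654517-112654546, minus strand: tgggcagcagcCTACCTCccagccaggtca
Nras, first 7-mer, chr3:103064363-103064392, plus strand: cttcagaataaCTACCTCctcactcggctg
Nras, second 7-mer, chr3:103066921-103066950, plus strand: aaggtctgcttTACCTCAaagttgcagagc
The matches to miR-294 in the same mRNAs were as follows.
Nras, first 7-mer, chr3:103066358-103066387, plus strand: ctgctgagaccAGCACTTggtcttgttttg
Nras, second 7-mer, chr3:103066720-103066749, plus strand: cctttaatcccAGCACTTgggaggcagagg
Igf1r, 7-mer, chr7:68228715-68228744, plus strand: tgtttcgatttAGCACTTcttaccagagca
Akt1, 7-mer, chr12:112653984-112654013, minus strand: gcccttctcctAGCACTTgtccttttagat

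Such matches are frequent in 3′ UTRs as long as these. A let-7 match was present in 14.8% of 20996 3′ UTRs and an 8-mer in 3.02%. Among 3′ UTRs of like length, here 0.8 to 1.25 times that of Igf1r (7267 bases), 57.9% had at least 1 let-7 match and 6.15% had at least as many. For Nras (3727 bases) the same shares were 32.7% and 7.45%, and for Insr (4747 bases) 41.5% and 12%. For Irs2 (2329 bases) 24.9% and for Akt1 (877 bases) 10.2% of 3′ UTRs of like length had a match. A miR-294 match was present in 17.6% of all 3′ UTRs, and in 42.3%, 65.1% and 11.8% of those of a length like that of Nras, Igf1r and Akt1. A letter match is a description of the sequence and does not show that the mRNA is bound.

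Depth per cell ranged from 513521 to 3979274 counts (median 1519780), and the median number of genes detected was between 7734 and 8038 in the 4 conditions. The files held 232 runs of 182 cells. In 4 pairs of differently numbered cells, 3 of let-7 and 1 of miR-294, the counts correlated as closely (r from 0.981 to 0.991) as those of 2 runs of 1 cell (0.971 to 0.990), where all other runs of different cells reached at most 0.740. Each pair was summed and counted as 1 cell, which left 60 mock, 16 WT, 45 let-7 and 57 miR-294 cells. Of the miR-294 cells 3 have titles of another form (MIR_294_ in place of miRNA294_) with the same genotype label, and leaving them out changed no member's side of 2-fold. In the let-7 cell LET_7I_41 and the WT cell V6.5_32 the runs did not match (r = 0.517 and 0.521), and what changed without them is given for Pik3ca and in the last paragraph. The counts of Dgcr8 were 52.3 ± 119 (SD) in mock and 120 ± 166 in WT cells, and a count over the whole gene does not check a partial deletion. The let-7 target Trim71 was at 162 ± 151 in let-7 and 724 ± 405 in mock cells, and the miR-294 targets Twf1 (742 ± 339 against 2399 ± 884) and Dazap2 (107 ± 122 against 862 ± 341) were lower in miR-294 than in mock cells. The authors had removed transfected cells whose targets were not lowered, so these 3 values describe selected cells. Lin28a, which blocks the maturation of let-7, was at 1.79 in mock, 264 in WT, 1.71 in let-7 and 37.3 in miR-294 cells.

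The cells expressed the markers of ESCs. All 8 pluripotency markers were counted in every condition. The fibroblast markers Col1a2, Col3a1, Postn and Lum and the endoderm markers Gata6 and Sox17 were at 0 in all 4. The summed pluripotency markers were lower in let-7 cells (2922 ± 1928, from 503.5 to 10106) than in mock cells (5910 ± 1680, from 1485 to 10244), with Nanog and Sall4 past 2-fold lower. A count of any fibroblast marker was found in 5 of 60 mock, 1 of 16 WT, 2 of 45 let-7 and 3 of 57 miR-294 cells, and their summed mean was 0.273, 0.124, 14 and 0.618. The let-7 mean was carried by these 2 cells, the higher of them at 357. Primitive endoderm markers had a count in 10 of 45 let-7 cells, against 1 of 60 mock, 0 of 16 WT and 6 of 57 miR-294 cells, with summed means of 13, 2.79, 0 and 7.47. A single cell at 461 held most of the let-7 sum, and the mock sum was that of a single cell at 168. The summed trophectoderm markers were at 301 ± 739 in mock, 105 ± 122 in WT, 291 ± 357 in let-7 and 102 ± 118 in miR-294 cells, and the early germ layer markers at 28.5 ± 76.5, 29.2 ± 57.5, 23.7 ± 62 and 9.12 ± 22.7. The part of these markers in the values below was not tested.

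Nras was by far the most abundant of the 8 mRNAs. By FPKM, which scales counts by gene length and depth, its mean was 102 in mock, 150 in WT, 78.3 in let-7 and 166 in miR-294 cells, while the other 7 were between 0 and 17.3 in every condition. Hras and Pik3ca were the next in let-7 cells (17.3 and 10.5) and in mock cells (6.22 and 6.62). The receptors and the Irs adaptors were at the bottom, except that Irs2 (6.78) stood above Akt1 (5.81) in let-7 cells, with Irs1 the lowest in mock (0.0158), let-7 (0.390) and miR-294 (0.00716) cells. In WT cells Irs1 and Irs2 were both listed at 0. Between Hras, Pik3ca, Akt1, Igf1r and Irs2 the order changed from condition to condition, and their spread over cells, with an SD of the counts above the mean wherever they were counted, was wider than the distance between neighbours in the order.

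**Figure D1:**
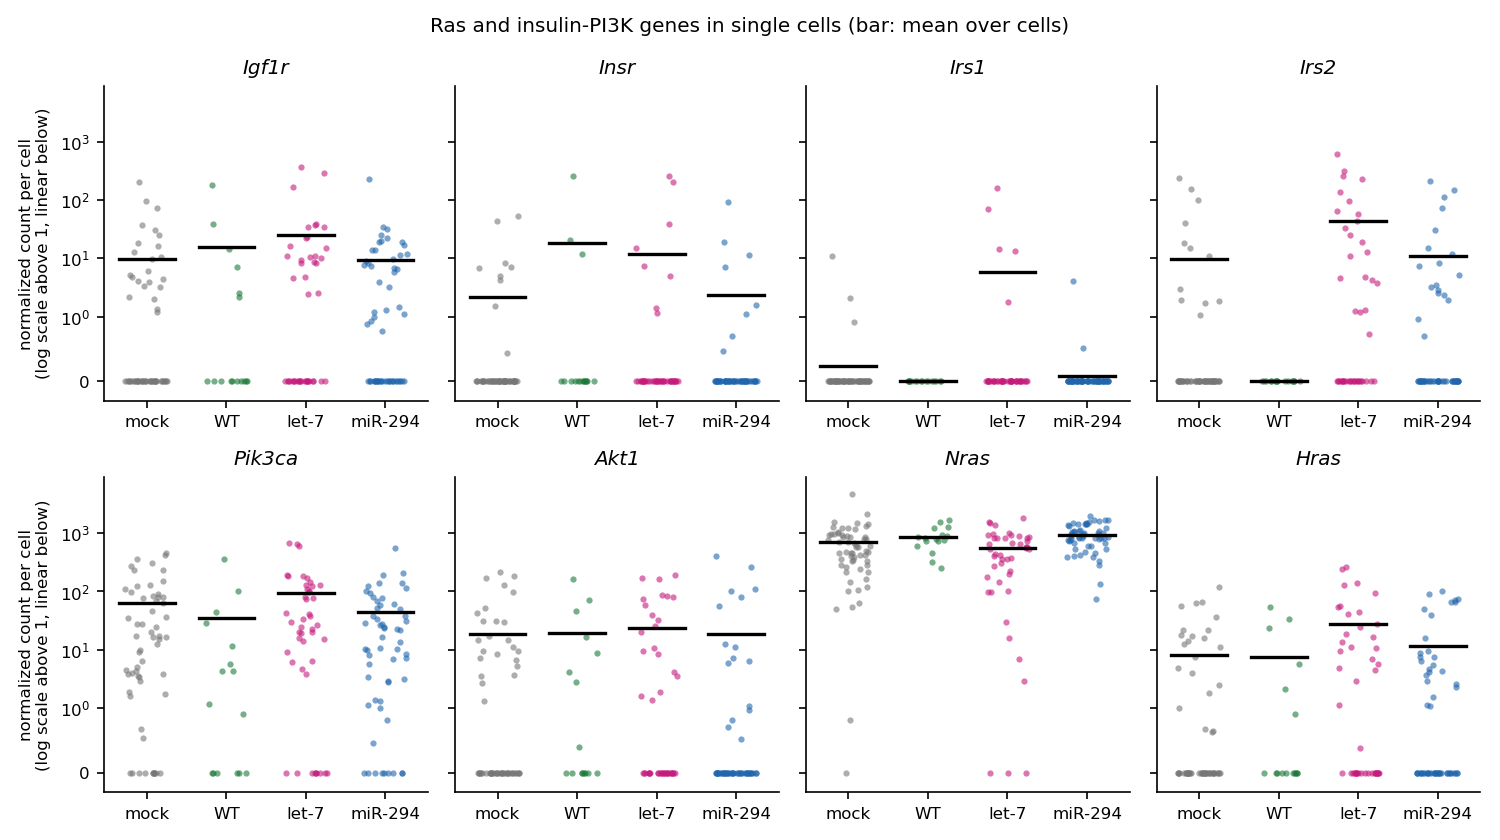
Normalized count of each of the 8 genes in each cell (points), by condition, on an axis that is logarithmic above 1 and linear below, with a bar at the mean over cells. Nras is counted in nearly all cells (medians of 534 to 885), while the other genes have many cells at 0 and a few cells with 100 counts or more that carry the mean.

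The number of the 8 genes with a count in a cell was on average 3.35 ± 1.04 (SD) in mock, 3.06 ± 1.06 in WT, 4.0 ± 1.52 in let-7 and 3.60 ± 1.24 in miR-294 cells. When each cell was thinned to the 513521 counts of the shallowest one, the means were 3.10, 2.69, 3.82 and 3.19. The most found in a cell was 6 of the 8 in mock, 5 in WT and 7 in let-7 and miR-294 cells. Shares of cells are given below with exact binomial 95% intervals and summed counts with exact Poisson 95% intervals, and both cover counting error only, since the reads were not counted by molecule.

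**Figure D2:**
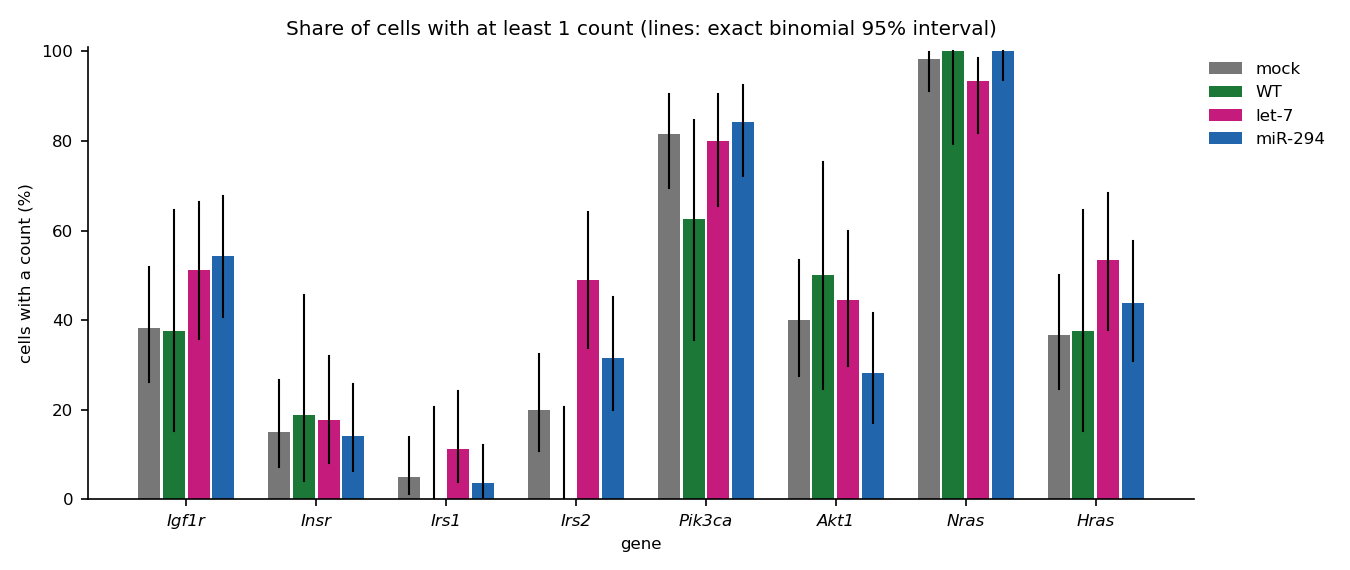
Percentage of cells with at least 1 count of each gene in the 4 conditions (bars), with exact binomial 95% intervals (lines). Nras is found in 93.3% to 100% of cells and Pik3ca in 62.5% to 84.2%, and the tallest bar of Irs2 is that of let-7 cells (48.9%), beside 20% in mock and 0% in WT cells.

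The insulin-like growth factor 1 receptor gene Igf1r (chr7:67952827-68233668, plus strand) was sparsely counted in all conditions. Counts of it were found in 23 of 60 mock cells (38.3%, from 26.1 to 51.8), 6 of 16 WT cells (37.5%, from 15.2 to 64.6), 23 of 45 let-7 cells (51.1%, from 35.8 to 66.3) and 31 of 57 miR-294 cells (54.4%, from 40.7 to 67.6). The normalized count ran from 0 over a median of 0 to 207 in mock cells, from 0 over 0 to 184 in WT cells, from 0 over 2.40 to 364 in let-7 cells and from 0 over 0.926 to 227 in miR-294 cells. The 4 ranges overlapped almost wholly. The mean was 25.3 ± 71.6 in let-7 cells and 9.65 ± 30.8 in mock cells, a log2 ratio of 1.39, but 32% of the let-7 sum lay in 1 cell. Without that cell, LET_7I_70, the ratio was 1.82 in place of 2.62, below 2-fold. In miR-294 cells the mean was 9.54 ± 30.5, a log2 ratio to mock of -0.02. In WT cells it was 15.5 ± 45.9, of which 74% lay in the cell V6.5_77. The ratio of mock to WT was 0.622, and it was 2.24 without V6.5_77 and 0.407 without Mock_41, so that its direction rested on 1 cell.

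The insulin receptor gene Insr (chr8:3122061-3279617, minus strand) was rarer still. It was counted in 9 of 60 mock cells (15%), 3 of 16 WT cells (18.8%), 8 of 45 let-7 cells (17.8%) and 8 of 57 miR-294 cells (14%), shares that lie within each other's intervals. The median was 0 in every condition, and the highest cell had 52.7 in mock, 261 in WT, 256 in let-7 and 90.9 in miR-294 cells. The mean was 11.6 ± 47.9 in let-7 and 2.17 ± 8.89 in mock cells, a log2 ratio of 2.43. The summed counts were 633 (585 to 684) in let-7 and 88 (70.6 to 108) in mock cells, and 48.8% of the let-7 sum lay in 1 cell. Leaving out any 1 cell kept the ratio between 2.81 and 8.87. The let-7 sum lay mostly in the cells LET_7I_69 (256) and LET_7I_33 (200), and the next let-7 cell was at 38.5. The ratio without both was not computed. No let-7 cell but these reached the mock cells Mock_2 (52.7) and Mock_41 (44.3). The higher let-7 mean therefore rested on LET_7I_69 and LET_7I_33. In WT cells the mean was 18.4 ± 65, with 88.8% of it in the cell V6.5_39, and the log2 ratio of mock to WT of -3.08 was -0.02 without that cell. In miR-294 cells the mean was 2.32 ± 12.3, a ratio to mock of 1.07, which was 0.341 without the cell miRNA294_57.

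The docking protein gene Irs2 (chr8:10984681-11008458, minus strand) differed most in how many cells it was counted in. It had a count in 12 of 60 mock cells (20%, from 10.8 to 32.3), in 22 of 45 let-7 cells (48.9%, from 33.7 to 64.2) and in 18 of 57 miR-294 cells (31.6%, from 19.9 to 45.2). No count was found in the 16 WT cells, for which the exact interval reaches up to 20.6%. After thinning to equal depth the shares were 16.7%, 44.4% and 28.1%. With a minimum of 10 counts before normalization, the numbers were 6 of 60 mock (10%, from 3.76 to 20.5), 14 of 45 let-7 (31.1%, from 18.2 to 46.6) and 9 of 57 miR-294 cells. The intervals of mock and let-7 cells were apart for any count and overlapped for 10 counts, and they cover counting error within 1 sample each. The median was 0 in each condition, and the highest cell was at 243 in mock, 609 in let-7 and 208 in miR-294 cells. The mean was 43 ± 111 in let-7 and 9.87 ± 38.9 in mock cells, a log2 ratio of 2.13, and it stayed between 3.06-fold and 7.27-fold without any 1 cell. It was 11.1 ± 37 in miR-294 cells, a log2 ratio to mock of 0.17. With the WT count of 0 set to 3 counts over the 16 cells, the ratio of mock to WT was 59.9, or 35.9 without the cell Mock_96, which held 41% of the mock sum. That setting covers counting error only. The interval of the WT share, up to 20.6%, includes the mock share of 20%, so this ratio is not a lower limit of the difference.

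Irs1 (chr1:82233101-82291416, minus strand), the other docking protein, was near the limit of what could be counted. It was counted in 3 of 60 mock, 5 of 45 let-7 and 2 of 57 miR-294 cells, and in 0 of 16 WT cells. These shares in mock and miR-294 cells were no larger than that of a fibroblast marker. The summed count was 251 (221 to 284) in let-7 cells, against 9 (4.12 to 17.1) in mock and 7 (2.81 to 14.4) in miR-294 cells. The highest cell was at 162 in let-7, 11.1 in mock and 4.14 in miR-294 cells, and the median was 0 in all. At least 10 counts before normalization were found in 4 of 45 let-7 cells and in no cell of the other conditions. The ratio of the means was 24.6 for let-7 over mock (9.52 to 115 without any 1 cell), and 62.2% of the let-7 sum lay in the cell LET_7I_16. For miR-294 over mock the ratio of the means was 0.347, but that of the summed counts was 0.704 (0.223 to 2.12), and without the cell Mock_4 the ratio of the means was 1.62, so no direction can be read from it. With the WT count of 0 set to 3 counts, the ratio of mock to WT was 1.43, and it was 0.306 without Mock_4. The interval of the WT share, up to 20.6%, includes the mock share of 5%. This ratio is therefore not a lower limit of the difference, and no direction can be read from it.

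Pik3ca (chr3:32397671-32468486, plus strand), the catalytic PI3K subunit, was the second most often detected of the 8 genes. It had a count in 49 of 60 mock cells (81.7%, from 69.6 to 90.5), 10 of 16 WT cells (62.5%, from 35.4 to 84.8), 36 of 45 let-7 cells (80%, from 65.4 to 90.4) and 48 of 57 miR-294 cells (84.2%, from 72.1 to 92.5). The normalized count ran from 0 over a median of 15.7 to 459 in mock cells, from 0 over 2.73 to 362 in WT cells, from 0 over 26.6 to 689 in let-7 cells and from 0 over 13.5 to 559 in miR-294 cells. All conditions overlapped across this range. The mean was 63.9 ± 108 in mock, 35.3 ± 91 in WT, 92.5 ± 163 in let-7 and 45 ± 85 in miR-294 cells. The log2 ratio was 0.53 for let-7 over mock, 0.31 without the cells whose runs did not match, and -0.50 for miR-294 over mock, none past 2-fold. It was 0.85 for mock over WT, where 64% of the WT sum lay in the cell V6.5_51. Without that cell the ratio was 4.70 in place of 1.81.

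The kinase gene Akt1 (chr12:112653821-112674884, minus strand) had the smallest differences between means among the sparse genes. The mean was 18.4 ± 46 in mock, 19.8 ± 43.7 in WT, 23.7 ± 47.8 in let-7 and 18.7 ± 66.8 in miR-294 cells. Its log2 ratio was 0.37 for let-7 over mock, 0.03 for miR-294 over mock and -0.10 for mock over WT. It was found in 24 of 60 mock (40%), 8 of 16 WT (50%), 20 of 45 let-7 (44.4%) and 16 of 57 miR-294 cells (28.1%, from 17 to 41.5). The median was 0 except in WT cells (0.197), and the highest cell was at 215 in mock, 165 in WT, 194 in let-7 and 407 in miR-294 cells. The fewest miR-294 cells had a count although their mean was level with that of mock cells, and 38.1% of the miR-294 sum lay in 1 cell, without which the ratio was 0.641.

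Nras (chr3:103058285-103067914, plus strand), the Ras GTPase with the most mRNA here, was the only member listed among the let-7 targets that the study took from earlier arrays. Its normalized count ran from 0 over a median of 534 to 4635 in mock cells, from 250.3 over 816 to 1680 in WT cells, from 0 over 536 to 1810 in let-7 cells and from 73.9 over 885 to 1997 in miR-294 cells. Nras was counted in all WT and miR-294 cells, in 59 of 60 mock cells and in 42 of 45 let-7 cells. A count under 10 before normalization was found in 5 of the 45 let-7 and 2 of the 60 mock cells, as 40 and 58 of them reached 10. The mean was 696 ± 688 in mock and 550 ± 453 in let-7 cells, a log2 ratio of -0.34, or -0.52 relative to the median of all genes. Without the mock cell with the highest count, Mock_3, the ratio of 0.790 was 0.874, and the ratio of the medians was 0.01 on the log2 scale. All 45 let-7 cells lay within the range of the mock cells.

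In miR-294 cells Nras was at 940 ± 430, a log2 ratio to mock of 0.43, and in WT cells at 869 ± 398, a log2 ratio of mock to WT of -0.32. None of the 3 ratios was past 2-fold. The spread was narrower in miR-294 and in WT cells, with a coefficient of variation over cells of 45.8% in each, than in mock (98.8%) and let-7 cells (82.3%). The mock value includes the cell Mock_3 at 4635, where the next mock cell was at 2171, and was not computed without it. No miR-294 cell was below 73.9 and no WT cell below 250.3. The 2 matches to the miR-294 seed in the 3′ UTR of Nras therefore stood beside a mean that was higher, not lower, with the miR-294 mimic than without. The gene shares 2.64% of its 31-base stretches with other genes, the most of the 8, so that a small part of its counts could be assigned elsewhere.

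Hras (chr7:141189105-141194005, minus strand), which has neither a let-7 nor a miR-294 match in its longest 3′ UTR, had a higher mean in let-7 cells. The mean was 27.2 ± 59 in let-7 and 8.28 ± 20.6 in mock cells, a log2 ratio of 1.72, between 2.64-fold and 4.24-fold without any 1 cell. The let-7 cells highest for Hras were LET_7I_70 (263), LET_7I_84 (246) and LET_7I_49 (137). The same cells were the highest for Igf1r (364, 294 and 168). The ratios without all of them were not computed, so the higher mean of Hras may rest on few cells. Counts were present in 22 of 60 mock (36.7%, from 24.6 to 50.1), 6 of 16 WT (37.5%, from 15.2 to 64.6), 24 of 45 let-7 (53.3%, from 37.9 to 68.3) and 25 of 57 miR-294 cells (43.9%, from 30.7 to 57.6). The highest cell was at 118 in mock, 54.6 in WT, 263 in let-7 and 102 in miR-294 cells, and the median was 0 except in let-7 cells (1.13). At least 10 counts before normalization were found in 13 of 60 mock, 3 of 16 WT, 18 of 45 let-7 and 11 of 57 miR-294 cells. The mean was 7.57 ± 16 in WT and 11.4 ± 25.2 in miR-294 cells, and the log2 ratios were 0.47 for miR-294 over mock and 0.13 for mock over WT.

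The Ras gene Eras, which is expressed in ESCs, was set beside them. Eras (chrX:7924276-7928607, minus strand) was counted in 8 of 60 mock, 6 of 16 WT, 1 of 45 let-7 and 28 of 57 miR-294 cells. A single count was found over all 45 let-7 cells, against 284 in mock cells, so the summed level was 0.00500 times that in mock cells (0.000126 to 0.0281, counting error only). In miR-294 cells its mean was 27.6 ± 52.5, 6.25-fold that of 4.41 ± 19.4 in mock cells and between 5.62-fold and 13-fold without any 1 cell. The ratio of mock to WT was 0.437, and it was 0.874 without V6.5_77 and 0.211 without Mock_2.

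The parts of the insulin branch were seldom counted in the same cell. A receptor and an Irs adaptor were both found in 4 of 60 mock cells (6.67%, from 1.85 to 16.2), 0 of 16 WT cells, 14 of 45 let-7 cells (31.1%, from 18.2 to 46.6) and 13 of 57 miR-294 cells (22.8%, from 12.7 to 35.8). With Pik3ca and Akt1 added, the whole chain was found in 2 mock, 0 WT, 6 let-7 and 3 miR-294 cells. Either receptor was found in 28 of 60 mock, 25 of 45 let-7 and 37 of 57 miR-294 cells, and either adaptor in 15, 26 and 19 of them. Whether both were found together more or less often than these separate shares give was not tested, and the joint shares were not thinned to equal depth. Between mock and let-7 cells the shares with an adaptor (25% and 57.8%) lay further apart than those with a receptor (46.7% and 55.6%). Within conditions the Spearman correlations between members counted in at least 50% of the cells were weak, from -0.33 to 0.21 over 16 to 60 cells that share a circuit and differ in depth. No gene reached a correlation of 0.5 with Nras or Pik3ca over the 178 cells, and the highest were 0.346 (Trim71) and 0.291 (Zfp367).

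**Figure D3:**
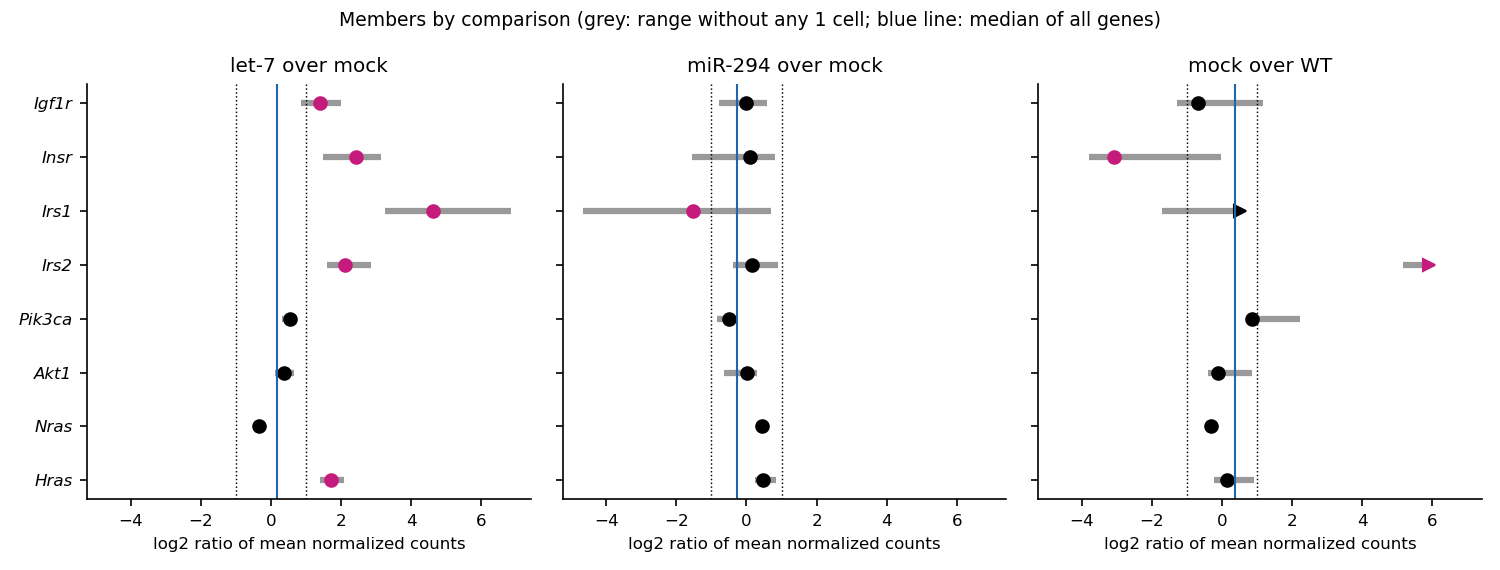
Log2 ratio of the mean normalized counts of each gene in 3 comparisons (points, pink where past 2-fold, triangles where a WT count of 0 was set to 3 counts), with the range over leaving out any 1 cell (grey) and the median of all 11227 genes (blue line). For let-7 over mock 5 points lie past 2-fold higher, Nras at -0.34 is the only one below 0, and for mock over WT the grey ranges of Igf1r, Insr and Irs1 each span several units.

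The 3 comparisons use the same mock cells, so they are not independent of each other. For let-7 over mock, 5 of the 8 members were past 2-fold higher and none lower, and 4 of these 5, Hras, Igf1r, Insr and Irs2, passed the filter on low counts. Hras and Igf1r were highest in the same let-7 cells, LET_7I_70, LET_7I_84 and LET_7I_49, so their calls are not independent of each other. Over all 11227 genes, 18.6% were past 2-fold higher and 9.20% lower, with a median log2 ratio of 0.18. Relative to that median the log2 ratio was 1.54 for Hras, 1.21 for Igf1r, 2.25 for Insr, 1.95 for Irs2, 0.36 for Pik3ca and 0.19 for Akt1. Genes with few counts pass 2-fold more easily: among the 4258 genes with a mean count of 5 to 30, a range chosen after the values were seen and holding Hras, Igf1r, Insr, Irs2 and Akt1, 45.3% were past 2-fold, 31.7% higher and 13.6% lower, and the median was 0.44. The members with let-7 8-mers, Igf1r, Insr and Irs2, had higher means in let-7 than in mock cells, those of Igf1r and Insr resting on few cells. Whether let-7 acts on them was not tested. Over all genes, the median log2 ratio of let-7 over mock was -0.01 over 1755 genes with a match, -0.04 over 375 with an 8-mer and 0.20 over 8573 without. Of these genes 16%, 21.3% and 7.85% were past 2-fold lower, and 14.5%, 14.1% and 18.7% higher.

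For miR-294 over mock no member that passed the filter was past 2-fold, where 26.4% of all genes were, 5.80% higher and 20.6% lower. Among the genes with a mean count of 5 to 30 the share was 43.3%, 11.8% higher and 31.5% lower. Outside the filter Irs1 was past 2-fold lower, on 7 and 9 counts. The median over all genes was -0.28, and relative to it the log2 ratio was 0.71 for Nras, 0.74 for Hras, 0.26 for Igf1r, 0.45 for Irs2, 0.30 for Akt1 and -0.23 for Pik3ca. For mock over WT, Irs2 was past 2-fold higher and Insr lower, 5 others were within 2-fold and Irs1 had only the lower bound given above, where 41.2% of all genes were past it, 31.8% higher and 9.35% lower, with a median of 0.37. Among the genes with a mean count of 5 to 30 the share was 59.7%, 45% higher and 14.7% lower. The WT mean rested on 1 cell for Insr and Igf1r, as given above.

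Beyond the 8 members, 70 other genes of these pathways were described, of which 52 passed the filter. For let-7 over mock 6 were past 2-fold higher and 3 lower, or 17.3%, against 27.8% of all genes, with a median log2 ratio of 0.23. Among the 6 that were higher were Pik3r3, a regulatory PI3K subunit (1.40), Ptpn11, a phosphatase that promotes Ras signalling (1.33), the lipid phosphatase Inpp4a (1.18), Mapkap1, a subunit of the kinase complex mTORC2 (1.04), and the Ras relative Mras (1.03). Of the 6 only Inpp4a stayed past 2-fold without any 1 cell (2.08 to 2.39). Lower were Eras, the translation repressor Eif4ebp2 (-1.44) and the mTOR subunit Mlst8 (-1.35), whose ratio of 0.393 was 0.515 without Mock_18. Eif4ebp2 was at 14.9 ± 37.8 in let-7 and 40.3 ± 69.5 in mock cells, and had a count in 14 of 45 and 48 of 60 cells.

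For miR-294 over mock 12 of the 52 genes were past 2-fold lower and only Eras was higher, or 25% in all against 26.4% of all genes, with a median of -0.24. Pik3r1, the main regulatory subunit of PI3K, was at 4.59 ± 17.6 in miR-294 and 32.6 ± 86.6 in mock cells (-2.83), and the catalytic subunit Pik3cb at 11.3 ± 19.6 and 66 ± 108 (-2.54). The Ras GTPase-activating protein Rasal2 (-2.18), the Ras exchange factors Sos2 (-1.85) and Sos1 (-1.56), and the Akt phosphatase Phlpp2 (-1.62) followed. All 6 stayed past 2-fold lower without any 1 cell, as did 8 of the 12. Both exchange factors were counted in most cells, Sos1 in 56 of 60 mock and 44 of 57 miR-294 cells, with medians of 57.9 and 12.6. None of these 6 was among the miR-294 targets that the study took from earlier arrays, whereas Nf1, Rasa2, Pik3r3 and Akt2, which were, had log2 ratios of -0.90, -1.12, -0.64 and -0.63. The study's other list, of predicted targets, was not searched.

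For mock over WT 18 of the 52 genes were past 2-fold higher and 6 lower, or 46.2% against 41.2% of all genes, with a median of 0.65. The regulatory PI3K subunits Pik3r3 (4.04) and Pik3r1 (3.40) were the furthest higher of those whose mean count reached 20, at 1.66 ± 4.0 and 3.09 ± 6.40 in WT cells. Akt2 (2.87), the TORC1 inhibitor Tsc2 (2.65), Mlst8 (2.65) and the cell death regulator Bad (2.51), a substrate of Akt, followed. Without any 1 cell 15 of the 18 stayed past 2-fold higher. Among those lower in mock were the phosphatases Ptpn1 (-1.16) and Ptpn11 (-1.01), whose ratios of 0.446 and 0.495 were 0.533 without V6.5_96 and 0.633 without V6.5_25. Without any 1 cell 1 of the 6 stayed past 2-fold lower.

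**Figure D4:**
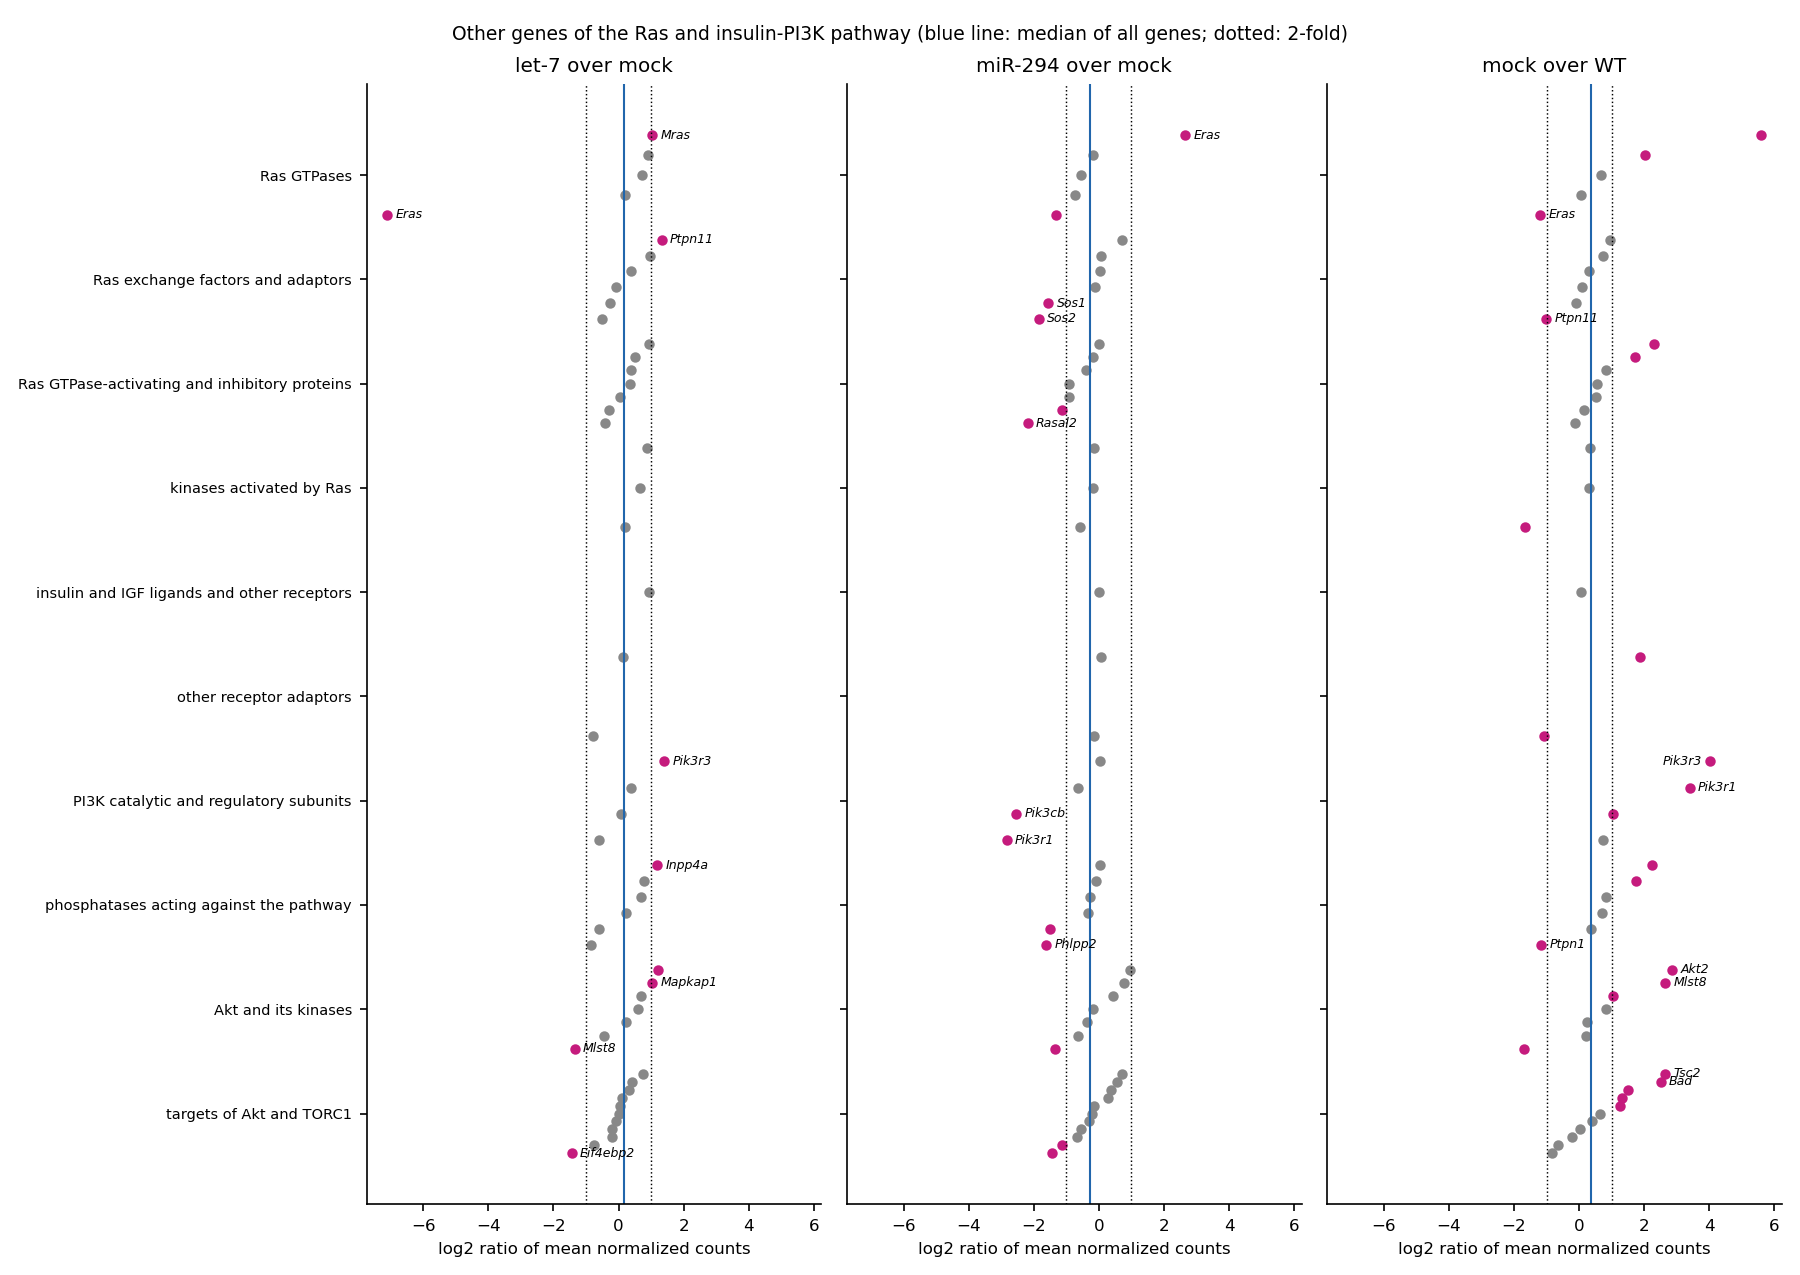
Log2 ratio of mean normalized counts of the 52 other pathway genes past the filter, in 3 comparisons, grouped by role, pink where past 2-fold, with the median of all genes (blue) and 2-fold limits (dotted), and names for genes given in the text. The miR-294 panel has 12 points past 2-fold lower and 1, Eras, higher, the mock over WT panel has 18 higher and 6 lower, and the point of Eras for let-7 rests on 1 count.

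The ligands of the pathway were nearly absent. No count of Ins1 or Ins2 was found in any condition, Igf1 was found only in WT cells with a mean of 0.343, and the mean of Igf2 was 0.260 in mock, 2.36 in WT, 0.0579 in let-7 and 0 in miR-294 cells. The receptor Igf2r, which removes Igf2 from the cell surface, was at 102 ± 137 in let-7 and 52.6 ± 83.2 in mock cells, a log2 ratio of 0.95. The genes named with the ligands were chosen after their values were seen.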

How the data were processed

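Expression was measured in single cells captured on the Fluidigm C1 and prepared with Nextera XT. Reads were assigned to Gencode M4 genes with RSEM 1.2.19, and the values deposited by the authors for each run were RSEM's expected count, left unscaled, and its FPKM. The 8 genes and all gene lists were chosen with earlier results of these data known. Runs of the same cell were added up and the sums rounded to whole numbers, near-identical cells were merged, and DESeq size factors were computed from the 864 genes counted in every cell. The deposited FPKM values were averaged over the runs of a cell with each run's total count as its weight and served only to compare levels between genes. Genes entered the backgrounds from a mean count of 5 upward. A gene was past 2-fold where the ratio of 2 condition means was at least 2 or at most 0.5. A condition at 0 was set to 3 counts over its cells. No differential test was run, since each condition is 1 sample. Of 42493 identifiers, 41674 were matched to a symbol. Named genes were the 8 members, Eras, the pathway genes past 2-fold, up to 6 per direction, whose mean count reached 20, and check genes. Some genes that the rule names are not reported here. The pathway lists held 70 genes. Depth and near-identity are given above. Thinning used a fixed seed, and the steps were tested on simulated data. Only well-counted genes were given a fold there, so the recovery of folds was not tested for members with few counts. Python 3.11.15, numpy 2.4.6, scipy 1.17.1 and pandas 2.3.3 were used, with edgeR 4.0.16 in R 4.3.3 for TMM factors, 1 of the alternatives. The range of low mean counts and the results without the cells of mismatched runs were chosen after the data were seen. Annotation and 3′ UTRs were of Gencode M21, on the same GRCm38 build as M4.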

Additional observations from a re-analysis of the deposited data

How the results depend on the processing

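No paired analysis was possible because cell and run numbers do not pair cells between conditions and no test was made. With a mean count of at least 50, 0 members were past 2-fold in each comparison, and the pathway genes past 2-fold were 3 (let-7 over mock), 6 (miR-294 over mock) and 11 (mock over WT), with 14.1%, 13.3% and 26.1% of all genes. Fewer genes are tested there, of the members only Nras and Pik3ca. With no filter, the pathway genes numbered 15 for let-7 and 21 for miR-294, and 1 member, Irs1, was past 2-fold for miR-294. With a 1.5-fold limit, the pathway genes numbered 26 and 23, all genes 48.1% and 46.6%, and 4 members were past it for mock over WT. With the first run of each cell, 1 member was past 2-fold for mock over WT and 3 for let-7 over mock. The log2 ratios of Insr (-3.05) and Irs2 (5.71) for mock over WT were still past 2-fold there. For let-7 over mock those of Hras, Igf1r, Insr and Irs2 were from 1.36 to 2.38. The lower numbers thus came from the filter on mean counts. Without any 1 cell, the log2 ratio of Irs1 for miR-294 over mock ran from -4.67 to 0.695, that of Insr for mock over WT from -3.81 to -0.02, and that of Igf1r for let-7 over mock from 0.87 to 2.00. Of the counts and shares of genes under the alternatives, 64 stayed within 1.5 times the reported value and 17 did not. Ratios of medians could be had only for Nras and Pik3ca, as each of the other members had a median of 0 in at least 1 of the conditions compared. TMM factors moved the median log2 ratio of all genes from -0.28 to -0.13 for miR-294 over mock and from 0.37 to 0.20 for mock over WT, and with the summed cells scaled by their total count 35.5% in place of 22% of the genes past 2-fold for miR-294 over mock were higher. Leaving out LET_7I_41 and V6.5_32, chosen after the data were seen, changed no member's side of 2-fold. The pathway genes past 2-fold were then 8 in place of 9 for let-7 over mock and 22 in place of 24 for mock over WT. In the latter comparison the ratio of Ptpn11 was 0.511 without these cells, within 2-fold. Most members have a count in under 50% of cells, so depth limits what their ratios show.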
